A study of Mus musculus with 8 samples.

Results

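The genes described here are Pik3r5, Pik3cg, Emp1 and Laptm4b, 4 of the 21848 genes counted in single cells from the mouse cortex after photothrombotic stroke (PT). Pik3r5, Emp1 and Laptm4b were chosen because their level in border-associated macrophages (BAMs) differed between ancrod-treated and control mice in an earlier processing of the same data, and Pik3cg was added as the partner of Pik3r5. The ancrod contrast in BAMs is therefore the contrast that chose the genes, and its values are given below as a description without a test. The genes were followed through every cell class of the injury site and, in the other classes, through the test of ancrod against control.

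Phosphoinositide 3-kinase gamma makes the membrane lipid PIP3 downstream of G protein-coupled receptors and is known from chemokine and complement responses of leukocytes. Pik3cg encodes its catalytic subunit p110γ, and Pik3r5 encodes p101, a regulatory subunit that ties the kinase to free Gβγ. Emp1 encodes a tetraspan glycoprotein of the PMP22 family that was described in epithelia, and Laptm4b encodes a tetraspan protein of late endosomes and lysosomes that brings the leucine transporter of Slc7a5 and Slc3a2 to the lysosome and favours mTORC1 activity. BAMs are the resident macrophages of the perivascular space, meninges and choroid plexus, and the receptors Mrc1, Lyve1 and Cd163 are widely used to mark them.

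Adult female mice, C57Bl/6J according to the design text, carried subcutaneous osmotic minipumps that delivered saline (control, n = 4) or 2.4 U ancrod per day (ancrod, n = 4) from 2 days before PT of the right sensorimotor cortex. Ancrod is a snake venom protease that depletes plasma fibrinogen. All 8 mice received PT, and no uninjured group was analysed here. The injury site and adjoining spared tissue were taken on day 6 without the meninges and without enrichment of any cell type, and each mouse gave 1 library. Mice 1 to 3 of both groups were injured and sequenced as batch 1 and the mice numbered 4 as batch 2, according to the labels.

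According to the GENCODE annotation of GRCm39, all 4 genes are protein coding. Pik3r5 (ENSMUSG00000020901) lies at chr11:68322939-68388675 on the plus strand, and Pik3r6, the gene of the other regulatory subunit of the same kinase, follows it on the same strand after a gap of 5169 bases. Pik3cg (ENSMUSG00000020573) lies at chr12:32223472-32258659 on the minus strand, Emp1 (ENSMUSG00000030208) at chr6:135339543-135360171 on the plus strand, and Laptm4b (ENSMUSG00000022257) at chr15:34238174-34290624 on the plus strand. Promoter windows of 300 bases are shown for the 3 genes with a promoter entry. Each runs from 250 bases before to 50 after an annotated start, 5′ to 3′ on the gene's strand (RefSeq sequence, GRCm38.p6). They are shown because Pik3r5 and Pik3cg were both high in leukocyte classes and low elsewhere, whereas Emp1 followed another order. Within the leukocyte classes Pik3r5 and Pik3cg took different orders. Capitals mark matches, on either strand, to 3 motifs. These are the PU.1 core GAGGAAGT, PU.1 being the myeloid lineage factor, the AP-1 element TGANTCA and the GC box GGGCGG, which are found in 3.20%, 7.81% and 35.7% of 32851 promoter windows. The Pik3r5 window (chr11:68431875-68432174, plus strand) is 62% G and C with 4 GC boxes and no match to the other motifs. The Pik3cg window shown (chr12:32208610-32208909, minus strand) is 40.7% G and C with 1 PU.1 match that spans the annotated start. The Emp1 window shown (chr6:135362681-135362980, plus strand) is 46.7% G and C with 2 AP-1 matches and 1 GC box. Emp1 has a second window at another start (chr6:135367243-135367542) with no match to any of the 3 motifs, and Pik3cg a second (chr12:32208421-32208720) that overlaps the one shown and holds the same PU.1 match. A match describes letters in this window and shows no binding.
Pik3r5 promoter: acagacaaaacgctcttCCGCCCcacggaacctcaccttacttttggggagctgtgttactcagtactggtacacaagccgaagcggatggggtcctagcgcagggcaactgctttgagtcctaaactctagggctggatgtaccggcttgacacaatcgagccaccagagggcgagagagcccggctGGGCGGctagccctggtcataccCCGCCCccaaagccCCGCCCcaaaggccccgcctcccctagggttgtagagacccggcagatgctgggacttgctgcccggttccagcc
Pik3cg promoter: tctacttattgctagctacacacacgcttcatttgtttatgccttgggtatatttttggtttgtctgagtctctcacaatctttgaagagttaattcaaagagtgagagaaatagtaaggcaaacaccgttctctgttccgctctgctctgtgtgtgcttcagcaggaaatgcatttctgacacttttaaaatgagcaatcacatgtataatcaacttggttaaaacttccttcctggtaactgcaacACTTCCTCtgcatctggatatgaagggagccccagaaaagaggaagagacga
Emp1 promoter: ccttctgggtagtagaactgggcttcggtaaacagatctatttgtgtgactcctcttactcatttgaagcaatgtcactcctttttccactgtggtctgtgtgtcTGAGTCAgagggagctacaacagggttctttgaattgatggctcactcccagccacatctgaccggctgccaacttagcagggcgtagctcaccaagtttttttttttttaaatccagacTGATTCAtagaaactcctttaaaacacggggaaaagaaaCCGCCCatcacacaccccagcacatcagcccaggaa

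Libraries held 97861434 to 122758649 UMIs in control and 126682918 to 142139441 UMIs in ancrod mice, with every ancrod library deeper than every control library. Droplets with at least 2000 UMIs and under 20% mitochondrial UMIs numbered 46216, of which 2144 were removed as likely doublets and 44072 cells were kept, 4874 to 5962 per mouse, with 253 barcodes present in 2 or more libraries. Clustering without the 4 genes and without the pathway lists used below gave 17 named classes, each called "-like" because its name rests on marker genes, and 5354 cells stayed unnamed. Levels are given in CPM, the UMIs of a gene in each 1000000 UMIs of a class in a mouse. The BAM-like class held 718 cells in 3 clusters, 1.31% to 1.51% of the cells of a control mouse and 1.37% to 2.22% of an ancrod mouse. All 9 BAM markers were found in BAM-like cells of every mouse, from Mrc1 with a mean of 2720 CPM to Siglec1 with 42.6 CPM, and their summed level was 7300 to 9137 CPM in control and 7157 to 8915 CPM in ancrod mice. The same 9 markers had named the clusters, so their presence is a description and no separate check of the label. The meninges had been removed, and the label says nothing of the site of the cells.

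Pik3r5 was a leukocyte gene at the injury site. Its mean level over 8 mice was 207 ± 33.4 CPM (SD) in dendritic cell-like cells, 165 ± 47.4 in monocyte-like, 153 ± 31.2 in natural killer cell-like, 133 ± 18.4 in microglia-like, 130 ± 55.2 in T cell-like (49 cells), 120 ± 18.6 in inflammatory macrophage-like, 89.5 ± 18.2 in neutrophil-like and 83.3 ± 28.4 CPM in BAM-like cells. The remaining classes were at 6.45 ± 3.85 CPM (neuron-like), 6.28 ± 0.997 (endothelial cell-like), 4.60 ± 2.59 (fibroblast-like), 4.46 ± 7.07 (vascular smooth muscle cell-like), 4.00 ± 3.34 (reactive astrocyte-like), 2.05 ± 1.58 (homeostatic astrocyte-like), 0.937 ± 1.08 (pericyte-like) and 0.641 ± 0.906 CPM (oligodendrocyte precursor cell-like), and at 1.17 CPM in ependymal cell-like cells, which were found in 4 mice. Taking neighbours in this order as different where the sign was the same in all 8 mice, only the step from BAM-like to neuron-like cells qualified among 15 steps, so the leukocyte classes could not be ranked among themselves step by step. Free RNA, measured in droplets of at most 100 UMIs, held 49.9 ± 8.40 CPM of Pik3r5, and 7 classes exceeded it in every mouse. BAM-like cells were not among these 7 because of control mouse 2, at 48.2 CPM against 48.5 CPM in its free RNA.

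Pik3cg, the catalytic partner, was highest in the same leukocyte classes but took another order within them. The highest means were 77.9 ± 14.7 CPM in BAM-like and 76.9 ± 6.99 CPM in microglia-like cells, which were not distinguishable (BAM-like higher in 5 of 8 mice). Neutrophil-like (64.3 ± 11.7), T cell-like (58.4 ± 22.0), monocyte-like (57.4 ± 7.80), dendritic cell-like (45.3 ± 9.44), natural killer cell-like (37.2 ± 8.26) and inflammatory macrophage-like cells (36.2 ± 6.24 CPM) came next. No other class exceeded 3.17 ± 3.40 CPM, the value of pericyte-like cells, and the lowest level above 0 was 0.282 ± 0.275 CPM in reactive astrocyte-like cells, with 0 UMIs in the 80 ependymal cell-like cells. The remaining means were 3.10 ± 3.86 (neuron-like), 2.54 ± 0.686 (endothelial cell-like), 1.27 ± 2.01 (vascular smooth muscle cell-like), 1.04 ± 0.774 (homeostatic astrocyte-like), 0.718 ± 1.10 (oligodendrocyte precursor cell-like) and 0.689 ± 0.268 CPM (fibroblast-like). Of 15 steps, the drop below inflammatory macrophage-like cells and the last drop, below fibroblast-like cells, had the same sign in 8 mice. By means over 8 mice, dendritic cell-like cells thus stood at the top for Pik3r5 and in the middle for Pik3cg. BAM-like cells stood at the lower end of the leukocytes for Pik3r5 and, with microglia-like cells, at the top for Pik3cg. Pik3cg means in BAM-like and microglia-like cells were 82.4 and 77.7 CPM in control and 73.4 and 76.2 CPM in ancrod mice. Pik3r5 means in BAM-like and neutrophil-like cells were 61.6 and 87.2 CPM in control and 105 and 91.8 CPM in ancrod mice.

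**Figure D1:**
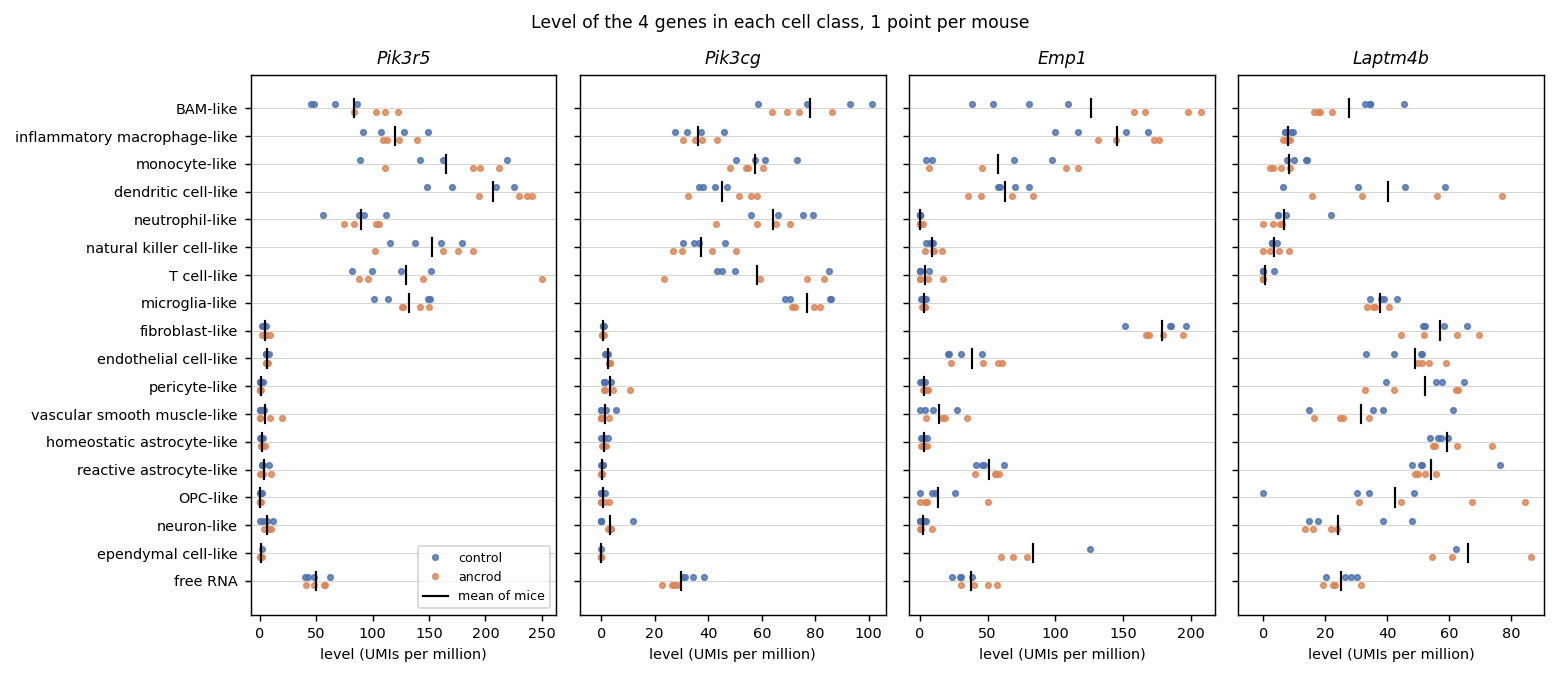
Level of each gene (x axis, CPM) in the 17 named classes and in free RNA, with 1 point per mouse (blue, control; orange, ancrod) and a black line at the mean over mice. Pik3r5 and Pik3cg points lie near 0 in every class outside the leukocytes, Emp1 has its highest mean over 8 mice in fibroblast-like cells (179 CPM), and Laptm4b is lowest in lymphoid, neutrophil-like, monocyte-like and inflammatory macrophage-like cells.

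The other regulatory subunit, Pik3r6, was looked at after its values had been seen, because its order across classes differed from that of Pik3r5. In endothelial cell-like cells Pik3r6 reached 44.0 ± 6.03 CPM (range 35.3 to 51.2), its highest mean among the 13 tested classes, while Pik3r5 and Pik3cg were at 6.28 and 2.54 CPM there, both below free RNA. In microglia-like cells Pik3r6 was at 31.2 ± 3.44 CPM and in BAM-like cells at 20.9 ± 5.01 CPM. In natural killer cell-like cells it was at only 1.58 ± 1.47 CPM (range 0 to 4.52), while Pik3r5 was at 153 ± 31.2 CPM there. The values of different genes stand side by side to show where each gene was high or low across classes. They do not rank the genes against each other, because UMI counts of 3′ libraries were not scaled for capture. The free RNA level of Pik3r6 is not given here.

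Emp1 joined a stromal class with macrophage classes. It was highest in fibroblast-like cells at 179 ± 15.2 CPM (151 to 197 over 8 mice), followed by inflammatory macrophage-like cells at 145 ± 27.7 and BAM-like cells at 126 ± 65.1 CPM, and these 3 classes were above free RNA (37.3 ± 11.3 CPM) in every mouse. The order differed by group, with means of 180, 134 and 70.5 CPM in control and 178, 156 and 182 CPM in ancrod mice. Dendritic cell-like cells (62.4 ± 16.5), monocyte-like cells (57.3 ± 47.3), reactive astrocyte-like cells (51.0 ± 8.15) and endothelial cell-like cells (38.2 ± 16.5 CPM) were intermediate, and the 4 mice with ependymal cell-like cells had 83.2 ± 29.2 CPM. Low levels were found in vascular smooth muscle cell-like (14.2 ± 12.2), oligodendrocyte precursor cell-like (13 ± 17), natural killer cell-like (8.85 ± 3.90), T cell-like (3.71 ± 6.09), homeostatic astrocyte-like (2.88 ± 1.70), pericyte-like (2.83 ± 1.88), microglia-like (2.70 ± 1.16), neuron-like (2.33 ± 3.17) and neutrophil-like cells (0.307 ± 0.868 CPM). No step between neighbours in this order had the same sign in all 8 mice. The astrocyte classes, which share their lineage, lay far apart for Emp1 at 51.0 CPM in reactive and 2.88 CPM in homeostatic astrocyte-like cells.

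Emp1 in monocyte-like cells spread widely within both groups, from 4.70 to 117 CPM. Control mice 1 to 4 had 4.70, 97.6, 69.3 and 8.74 CPM, and ancrod mice 1 to 4 had 108, 117, 46.0 and 6.96 CPM, so that both batch 2 mice and control mouse 1 were low. The class joins a cluster led by Plac8, Chil3 and Ccr2, genes of classical monocytes, in which Emp1 was at 76.8 CPM in control and 100 CPM in ancrod cells pooled, and a cluster of 137 cells led by Adgre4, Ace and Ear2, genes of patrolling monocytes, in which it was at 3.04 and 1.71 CPM on 3 and 1 UMIs. The Adgre4-led cluster made up 19.1% to 36.2% of the monocyte-like cells of control mice and 9.39% to 28.2% of those of ancrod mice, and the mice with low Emp1 held 19, 58 and 34 monocyte-like cells. Its part in the spread between mice was not tested.

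Laptm4b was highest in most neural, vascular and stromal classes, though not in neuron-like or vascular smooth muscle cell-like cells, and lowest in most leukocytes. Its mean was 59.2 ± 6.58 CPM in homeostatic astrocyte-like, 57.0 ± 8.48 in fibroblast-like, 54.2 ± 9.26 in reactive astrocyte-like, 52.3 ± 12.3 in pericyte-like, 48.9 ± 7.81 in endothelial cell-like, 42.6 ± 25.6 in oligodendrocyte precursor cell-like and 31.4 ± 14.9 CPM in vascular smooth muscle cell-like cells, and 65.9 ± 14.0 CPM in the 4 mice with ependymal cell-like cells. Among leukocytes, dendritic cell-like cells had 40.2 ± 23.6, microglia-like cells 37.6 ± 3.31 and BAM-like cells 27.8 ± 10.5 CPM (means of 36.8 in control and 18.7 in ancrod mice), with free RNA at 25.2 ± 4.60 and neuron-like cells at 24.2 ± 12.5 CPM. Monocyte-like (8.19 ± 4.41), inflammatory macrophage-like (7.90 ± 1.12), neutrophil-like (6.73 ± 6.57), natural killer cell-like (3.61 ± 2.47) and T cell-like cells (0.426 ± 1.21 CPM) were lowest. The step down to monocyte-like cells was the only 1 of 15 with the same sign in 8 mice. Microglia-like and BAM-like cells, taken as whole classes, lay above the inflammatory macrophage-like and monocyte-like classes for Laptm4b in every mouse. For Emp1, microglia-like cells had a mean of 2.70 CPM and BAM-like cells one of 126 CPM. Whether BAM-like cells were resident was not measured.

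Within the myeloid cells, 6553 cells in 24 clusters of which 19 were named, Emp1 spanned a wide range across clusters. The highest value was 519 CPM in control and 527 CPM in ancrod cells pooled. It was in a cluster of 470 cells led by Cd36, Chil3, Lgals3 and F10, which carried markers of both monocytes and inflammatory macrophages. That cluster stayed unnamed, so the values of inflammatory macrophage-like cells leave it out. Inflammatory macrophage-like clusters led by S100a4, Acp5 and class II genes such as H2-Eb1 (274 and 249 CPM) and by Fbxo32 and Gpnmb (271 and 227 CPM) came next in control cells, and in ancrod cells the BAM-like cluster of 320 cells (135 and 266 CPM) lay above both. The S100a4 and Acp5 cluster had none of the 7 inflammatory macrophage markers among its 10 leading genes and shared class II genes with the largest dendritic cell-like cluster. The inflammatory macrophage-like clusters led by Ms4a7 and Cxcr4 (675 cells) and by H2-Eb1 and Top2a (173 cells) also had none of the 7 there. Pik3r5 was at 182 to 225 CPM in the unnamed cluster, the S100a4 and Acp5 cluster and the Fbxo32 and Gpnmb cluster. A dividing cluster of 162 cells whose leading genes included Mrc1, Pf4, Cbr2 and Mki67 scored highest as inflammatory macrophage and stayed unnamed, outside the BAM-like class. It had Emp1 at 139 CPM in control and 151 CPM in ancrod cells. Laptm4b was at 10.8 and 11.2, Pik3r5 at 57.9 and 72.3 and Pik3cg at 56.9 and 45.9 CPM there.

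Laptm4b in dendritic cell-like cells came mainly from small clusters. The cluster led by Ccr7 and Mreg, genes of migratory dendritic cells, held only 33 cells and had 627 CPM in control cells (48 UMIs in 7 cells) and 375 CPM in ancrod cells (125 UMIs in 26 cells), the highest values of any myeloid cluster. The cluster led by Clec9a and Xcr1, genes of cross-presenting dendritic cells, held 116 cells at 88.7 and 103 CPM. The largest dendritic cell-like cluster, 531 cells led by class II genes such as H2-Eb1, had Laptm4b at only 8.97 and 6.28 CPM but Pik3r5 at 199 and 310 CPM. In the Ccr7 and Mreg cluster Pik3r5 was at 366 CPM in control (28 UMIs) and 165 CPM in ancrod cells (55 UMIs). That was above the largest dendritic cell-like cluster in control and below it in ancrod cells. In the Clec9a and Xcr1 cluster Pik3r5 was at 62.1 and 37.9 CPM. The pooled values have no spread between mice.

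**Figure D2:**
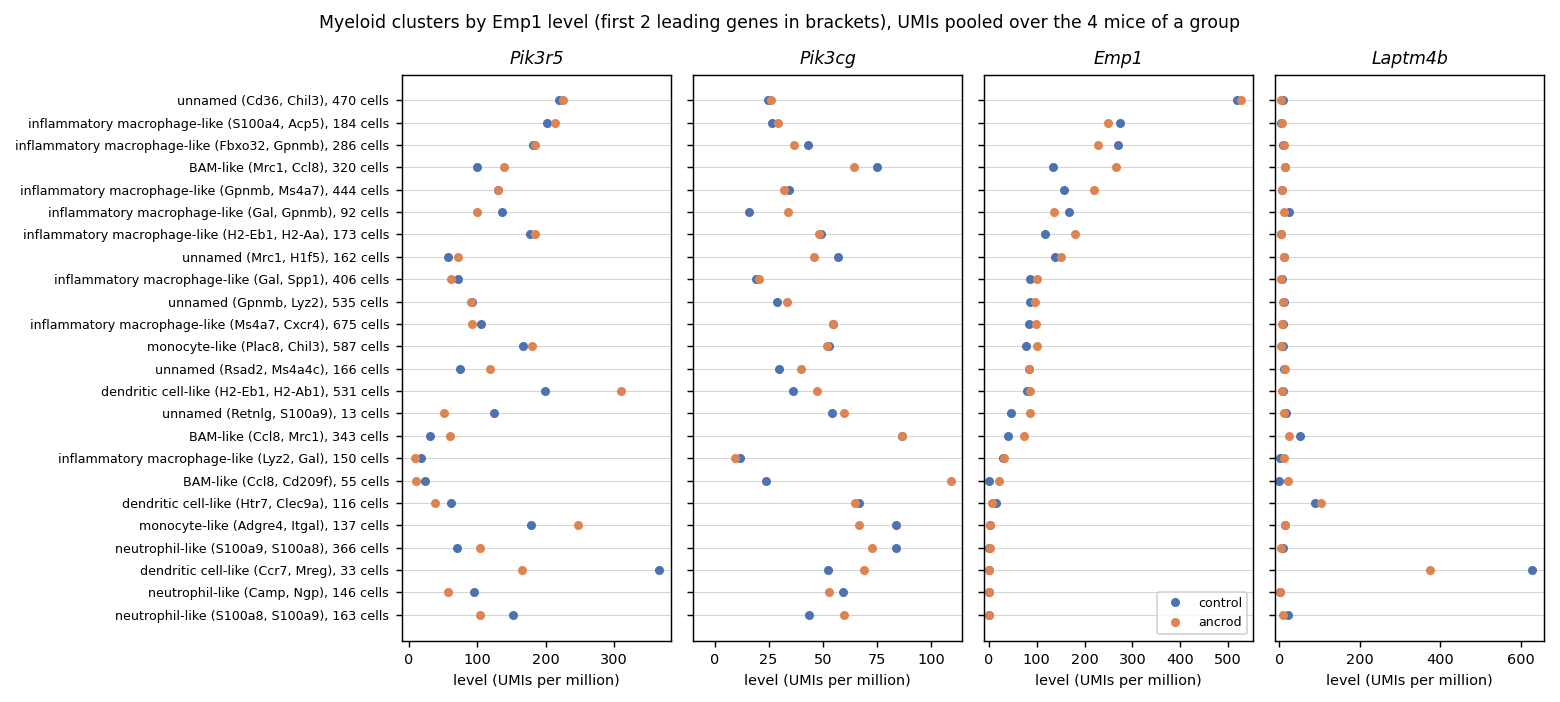
Level of each gene (x axis, CPM) in the 24 myeloid clusters, with the UMIs of the 4 mice of a group pooled (blue, control; orange, ancrod) and clusters ordered by Emp1. The unnamed Cd36 and Chil3 cluster has the highest Emp1 at 519 and 527 CPM, and the Ccr7 and Mreg cluster stands apart for Laptm4b at 627 and 375 CPM.

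As a description, the likeness of patterns was measured by Pearson's r of log2(mean CPM over mice + 1) over the 17 classes. It was taken among 12659 genes that reached 20 CPM in at least 1 class. The classes share the same 8 libraries and differ in depth. Pik3r5 and Pik3cg had r = 0.95 with each other, Pik3r5 had r = -0.68 with Laptm4b and 0.04 with Emp1, and Emp1 had r = 0.25 with Laptm4b. The value for Pik3r5 and Pik3cg spans leukocyte classes and classes in which both were low, and their order within the leukocytes differed. Closest to Pik3r5 were Sla, Hcls1, A630001G21Rik, Tnfrsf1b and Neurl3, each at r = 0.97, and closest to Pik3cg were Hcls1, Gmip, Ptpn6, Was and Arhgap30, each at r = 0.98. Hcls1, a cytoskeletal protein of blood cells, stood in both lists, Ptpn6 encodes the phosphatase SHP-1, and Was the Wiskott-Aldrich syndrome protein. Emp1 had no close match, with Anxa4 at 0.78, Stard3nl and Pdia6 at 0.76, and Senp3 and Lrrc59 at 0.75. Laptm4b was closest to Txndc15 at 0.93, Ptov1 at 0.89, Slc39a13 (a zinc transporter) and Vangl2 (a planar polarity protein) at 0.87, and Wwc2 at 0.86.

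In BAM-like cells, the class on which the genes were chosen, Emp1 and Pik3r5 were higher and Laptm4b lower in ancrod mice. Emp1 was at 53.6, 38.7, 109 and 80.6 CPM in control mice 1 to 4 and at 198, 158, 208 and 166 CPM in ancrod mice 1 to 4, so that every ancrod mouse was above every control mouse. Pik3r5 was at 85.9, 48.2, 66.4 and 45.9 CPM in control and at 123, 111, 103 and 83.2 CPM in ancrod mice, and the groups overlapped by 1 mouse on each side, ancrod mouse 4 lying just below control mouse 1. Laptm4b was at 34.4, 45.5, 34.6 and 32.9 CPM in control and at 18.5, 16.5, 17.8 and 22.2 CPM in ancrod mice, again with no overlap. Pik3cg was at 93.0, 76.7, 58.6 and 101 CPM in control and at 73.9, 69.6, 63.7 and 86.3 CPM in ancrod mice, and these ranges overlapped. Of 9442 genes tested in BAM-like cells, 1.69% had every ancrod mouse above every control mouse and 1.49% had every ancrod mouse below, and nothing is read from the members' counts against these shares because this contrast chose them.

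The log2 fold change of ancrod against control, from an edgeR fit of summed UMIs over the whole class, was 1.34 for Emp1 (SE 0.24), 0.81 for Pik3r5 (SE 0.19), -0.95 for Laptm4b (SE 0.17) and -0.15 for Pik3cg (SE 0.17). Over all 9442 genes the median was -0.01, with quartiles of -0.15 and 0.12. With the cells and classes used here, the quasi-likelihood test of edgeR, adjusted by Benjamini-Hochberg over them, called 0 of these genes (0%), while 548 (5.8%) had an unadjusted p under 0.05 and DESeq2 called 12 (0.127%). No gene lay inside the threshold in the edgeR fit, and the nearest outside it were Arg1 (log2 fold change 2.62) and Clec4e (1.80). In batch 1 alone, 3 mice per group, the log2 fold changes were 1.45 for Emp1, 0.79 for Pik3r5, -1.09 for Laptm4b and -0.10 for Pik3cg, and batch 2 held 1 mouse per group.

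**Figure D3:**
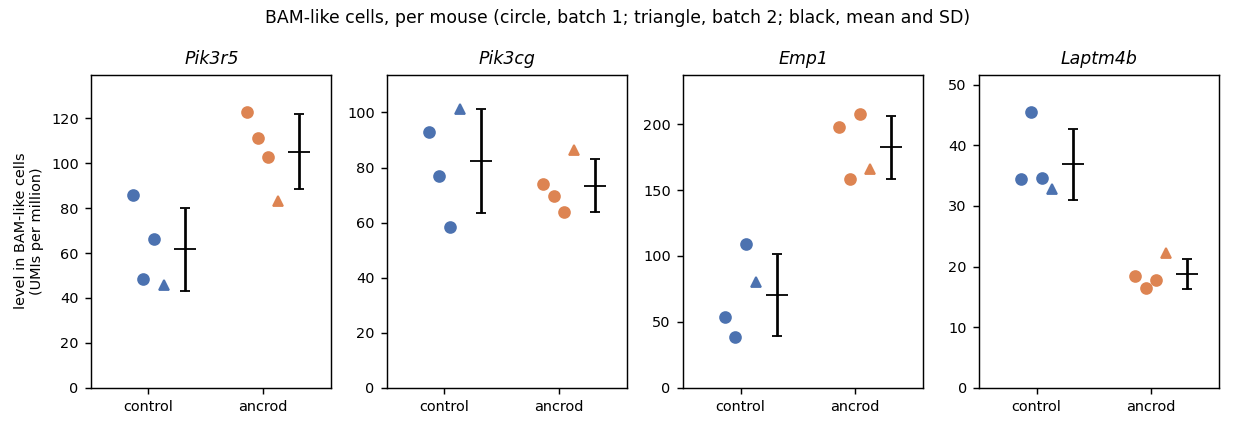
Level of each gene in BAM-like cells (y axis, CPM), with 1 point per mouse (circle, batch 1; triangle, batch 2) and the mean and SD of 4 mice in black. For Emp1 the ancrod mice (158 to 208 CPM) lie above the control mice (38.7 to 109 CPM), and for Laptm4b they lie below (16.5 to 22.2 against 32.9 to 45.5 CPM), while Pik3r5 and Pik3cg overlap.

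The share of BAM-like cells with a UMI of each gene depends on depth, and the median UMIs of a BAM-like cell ranged from 13085 to 26641 over control and from 19933 to 26240 over ancrod mice. Emp1 was found in 18.9% to 44.9% of BAM-like cells of control and in 31.2% to 58.4% of those of ancrod mice. After each cell had been thinned to 2000 UMIs, with no cell lost, the shares were 5.56% to 13.3% and 15.6% to 20.8%, against 0% in thinned neutrophil-like cells, which were at no more than 0.488% unthinned at a median of 3585 to 6148 UMIs. For Pik3r5 the thinned shares were 8.89% to 13.9% in control and 10.4% to 17.6% in ancrod mice (35.1% to 55.1% and 50.6% to 65.6% unthinned), against at most 1.18% of pericyte-like cells unthinned. For Laptm4b, thinned shares of 1.28% to 8.11% and 2.08% to 4.80% (25% to 44.6% and 23.4% to 31.2% unthinned) overlapped, and few UMIs remained, while natural killer cell-like cells were at 0% to 5.38% unthinned. Pik3cg was found in 56.7% to 79.5% of cells in control and 67.5% to 78.4% in ancrod mice (12.2% to 23.6% and 8.49% to 19.8% thinned), against 0.873% to 5.00% of the deeper fibroblast-like cells. The log2 fold change in thinned cells was 1.57 for Emp1, 0.46 for Pik3r5 and -0.16 for Pik3cg, and Laptm4b failed the filter on low counts.

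The BAM-like class held clusters that differed in the members' levels. A pair of clusters led by genes including Cd163, 343 and 55 cells, stood beside a cluster of 320 cells without Cd163 among its 10 leading genes. Those 10 were Mrc1, Ccl8, Cbr2, Pf4, F13a1, Ccl7, Cd36, Ccl6, Folr2 and Gm21188, and Cd36 is also on the inflammatory macrophage marker list. Control mice held 111 of 314 BAM-like cells (35.4%) in the cluster not led by Cd163 and ancrod mice 209 of 404 (51.7%). Most control cells thus lay in the Cd163-led clusters and most ancrod cells in the other. The share per mouse was 44.4%, 16.2%, 33.3% and 47.4% in control mice 1 to 4 and 54.4%, 55.8%, 51.9% and 44.8% in ancrod mice 1 to 4, and these overlapped. Pik3r5 and Emp1 were higher in the cluster not led by Cd163 than in the Cd163-led clusters in 8 of 8 mice, Laptm4b was lower there in 7 of 8 and Pik3cg in 6 of 8. The split was made after the clusters had been seen, and the 4 genes were not used in clustering.

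Within the Cd163-led clusters, Pik3r5 was at 30.2, 33.8, 39.0 and 18.8 CPM in control and at 73.0, 44.8, 65.5 and 47.0 CPM in ancrod mice, with no overlap. Laptm4b was at 58.3, 48.0, 52.2 and 47.9 CPM in control and at 30.5, 18.2, 22.5 and 22.1 CPM in ancrod mice, also with no overlap, whereas Emp1 overlapped at 0, 16.0, 70.6 and 37.6 against 84.2, 36.5, 86.1 and 67.3 CPM. Among the 9442 genes, 1.02% had every ancrod mouse above and 1.55% every ancrod mouse below the control mice in these clusters. The log2 fold changes there were 0.95 (SE 0.24) for Pik3r5, 1.01 (SE 0.48) for Emp1, -1.07 (SE 0.20) for Laptm4b and -0.00 (SE 0.23) for Pik3cg.

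Within the cluster not led by Cd163, Emp1 was at 101, 112, 174 and 128 CPM in control and at 263, 233, 309 and 254 CPM in ancrod mice, with no overlap, where 1.82% of genes had every ancrod mouse above. Pik3r5 overlapped at 135, 95.1, 112 and 76.0 against 151, 152, 134 and 116 CPM, and so did Laptm4b at 13.3, 37.5, 4.94 and 16.2 against 11.5, 15.3, 13.9 and 22.3 CPM. Laptm4b rested there on 4 to 17 UMIs in a control and 15 to 27 UMIs in an ancrod mouse. The log2 fold changes were 1.00 (SE 0.17) for Emp1, 0.40 (SE 0.18) for Pik3r5, -0.02 (SE 0.43) for Laptm4b and -0.26 (SE 0.21) for Pik3cg. The estimate for Emp1 was thus 1.01 and 1.00 in the parts of the class and that for Laptm4b -1.07 and -0.02, and the difference between the parts was not tested. Splitting the class by cells with and without a UMI of Lyve1 or Cd163 gave log2 fold changes of 1.54 and 1.12 for Emp1, 1.01 and 0.56 for Pik3r5, -1.20 and -0.25 for Laptm4b and -0.12 and -0.32 for Pik3cg.

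**Figure D4:**
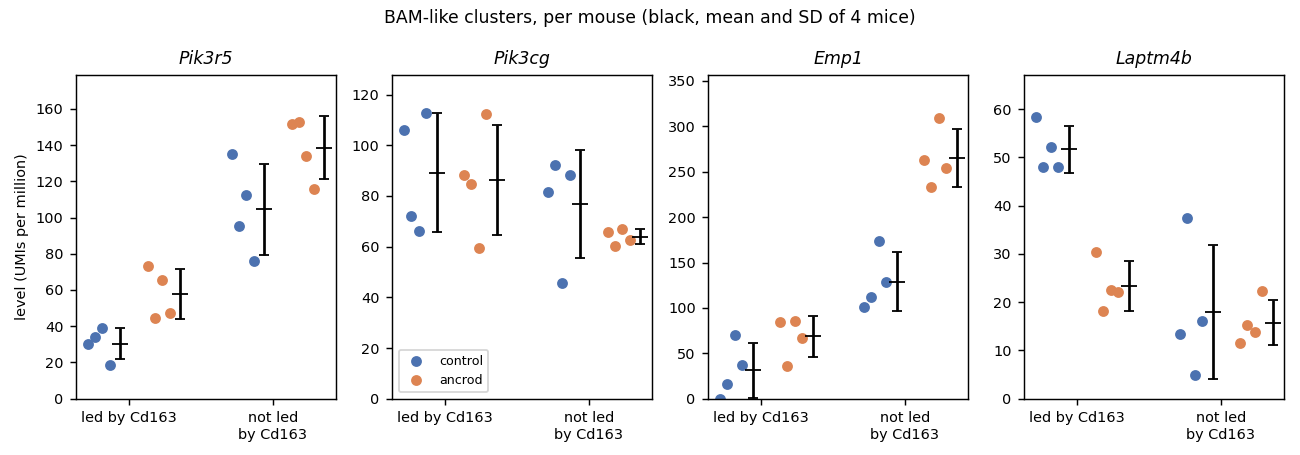
Level of each gene (y axis, CPM) in the Cd163-led BAM-like clusters and in the BAM-like cluster not led by Cd163, with 1 point per mouse (blue, control; orange, ancrod) and the mean and SD of 4 mice in black. Laptm4b separates the groups in the Cd163-led clusters (47.9 to 58.3 against 18.2 to 30.5 CPM). It overlaps in the other cluster, where it rests on 4 to 17 UMIs in a control mouse. Emp1 separates the groups in the other cluster (101 to 174 against 233 to 309 CPM).

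Markers of other classes were measured in BAM-like cells beside these values. The 7 inflammatory macrophage markers, a class with higher Emp1 and lower Laptm4b than BAM-like cells of control mice, summed to 866 to 1416 CPM in control and 1206 to 1347 CPM in ancrod mice, against 4437 to 6550 CPM in their own class, and only Arg1 was at 0 in a mouse (1 control mouse). Arg1 had a log2 fold change of 2.62 but at most 41.9 CPM in a mouse, while Cd36 reached 604 CPM. The sum therefore does not show whether single markers differed. The 7 microglia markers summed to 926 to 1297 and 947 to 1209 CPM, against 6215 to 7433 CPM in their own class, with Sall1 and Slc2a5 at 0 in 1 ancrod mouse each. The 7 fibroblast markers, all present in every ancrod mouse with Lum at 0 in 2 control mice and Dcn in 1, summed to 5.99 to 20.4 CPM in control and 14.6 to 55.8 CPM in ancrod mice, against 22173 to 35493 CPM in fibroblast-like cells. The 7 astrocyte markers summed to 20.8 to 66.6 and 58.8 to 177 CPM, against 26650 to 31981 CPM in homeostatic astrocyte-like cells, with Aqp4 at 0 in 4 of 8 mice, and the 7 neutrophil markers to 80.1 to 145 CPM in 7 mice but 795 CPM in control mouse 3, the only mouse with all 7 present, against 45763 to 199779 CPM in neutrophil-like cells. Without control mouse 3 the log2 fold changes were 1.64 for Emp1, 0.86 for Pik3r5, -0.99 for Laptm4b and -0.30 for Pik3cg. Free RNA was estimated at 0% to 1.12% of the UMIs of BAM-like cells in a mouse. Subtracting this estimate gave 1.34, 0.81, -0.97 and -0.16 in the same order. The estimate came from the least detected marker list of another niche, so it can be too low and is no upper limit. Where it was 0, nothing was subtracted. The monocyte markers summed to 31.9 to 202 and 112 to 211 CPM, those of dendritic cells to 12 to 26.5 and 6.96 to 31.8 CPM with Ccl22 at 0 in every mouse, and those of natural killer and T cells to at most 1.47 CPM. The part of these marker lists in the differences was not tested.

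In the other classes and in all cells together, the members showed no difference between ancrod and control mice that passed the edgeR test. All cells together include the BAM-like cells, which held a mean of 3.16% of the Emp1 UMIs in control and 5.55% in ancrod mice. In 12 classes and in all cells together, 36 of 52 possible tests passed the filter on low counts (9 for Pik3r5, 8 for Pik3cg, 9 for Emp1 and 10 for Laptm4b), and edgeR with Benjamini-Hochberg adjustment over all genes of a class called 0 of them, with 2 at an unadjusted p under 0.05 and 1 called by DESeq2. Over all genes, edgeR called 0.0138% of 130064 tests in these comparisons, DESeq2 called 1.05%, and 8.51% had an unadjusted edgeR p under 0.05. The members' 2 of 36 was near that last share, and nothing is read from it.

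For Emp1, the classes with levels near that of BAM-like cells had small differences. In inflammatory macrophage-like cells it was at 116, 152, 168 and 99.99 CPM in control and at 173, 176, 131 and 145 CPM in ancrod mice, which overlapped, with a log2 fold change of 0.18 (SE 0.15, edgeR adjusted p = 0.998). In fibroblast-like cells it ranged from 151 to 197 CPM in control and from 167 to 194 CPM in ancrod mice, with a log2 fold change of -0.01 (SE 0.10, edgeR adjusted p = 0.970). Endothelial cell-like cells overlapped at 20.4 to 46.0 against 22.6 to 60.9 CPM (log2 fold change 0.66, SE 0.33, edgeR adjusted p = 0.547), and monocyte-like cells had the widest error at 0.45 (SE 0.56). Whether the difference in BAM-like cells exceeded that in any other class was not tested, because the genes were chosen on the former.

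Pik3r5 had log2 fold changes of -0.01 (SE 0.13) in inflammatory macrophage-like, 0.11 (SE 0.15) in microglia-like, 0.13 (SE 0.21) in monocyte-like, 0.11 (SE 0.18) in natural killer cell-like, -0.00 (SE 0.30) in neutrophil-like and 0.24 (SE 0.14, edgeR adjusted p = 0.721) in dendritic cell-like cells. Its largest log2 fold change outside BAM-like cells, and its lowest edgeR adjusted p there, was in fibroblast-like cells (0.64, SE 0.52, adjusted p = 0.583), where it was at 2.16 to 6.02 CPM in control and 1.73 to 9.36 CPM in ancrod mice, below free RNA in both groups. In dendritic cell-like cells it was at 148, 209, 171 and 225 CPM in control and at 236, 241, 194 and 229 CPM in ancrod mice, which overlapped. Pik3cg had its lowest edgeR unadjusted p in endothelial cell-like cells (log2 fold change 0.66, SE 0.18, unadjusted p = 0.00484, adjusted p = 0.488). It was at 1.56 to 2.38 CPM in control and 2.83 to 3.45 CPM in ancrod mice with no overlap, as for 2.26% of genes there. That level came from 294 UMIs and lay below the free RNA level of 22.9 to 38.3 CPM in every mouse. The lowest edgeR adjusted p of Pik3cg was in all cells together, in the other direction (log2 fold change -0.27, SE 0.12, adjusted p = 0.282). In microglia-like cells, the largest class, Pik3cg had a log2 fold change of 0.01 (SE 0.08).

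Laptm4b in microglia-like cells was at 43.3, 38.9, 38.1 and 34.6 CPM in control and at 33.5, 36.2, 40.7 and 35.3 CPM in ancrod mice, with a log2 fold change of -0.05 (SE 0.08, edgeR adjusted p = 0.969). Its log2 fold change was -0.08 (SE 0.16) in inflammatory macrophage-like, 0.01 (SE 0.14) in fibroblast-like, 0.14 (SE 0.11) in homeostatic astrocyte-like, 0.26 (SE 0.14) in endothelial cell-like and -0.42 (SE 0.41) in vascular smooth muscle cell-like cells. Dendritic cell-like cells had the widest error at 0.50 (SE 0.52), with levels from 6.24 to 58.8 CPM in control and from 15.7 to 76.9 CPM in ancrod mice. Monocyte-like cells failed the filter on low counts for Laptm4b, with 80 UMIs over 8 mice, and were not tested. There it was at 14.1, 13.8, 10.1 and 7.65 CPM in control and at 3.12, 5.84, 8.63 and 2.32 CPM in ancrod mice, so that the mean was lower in ancrod mice (4.98 against 11.4 CPM) and the groups overlapped by 1 mouse on each side. The lower Laptm4b of ancrod BAM-like cells was therefore not shown to be particular to that class.

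**Figure D5:**
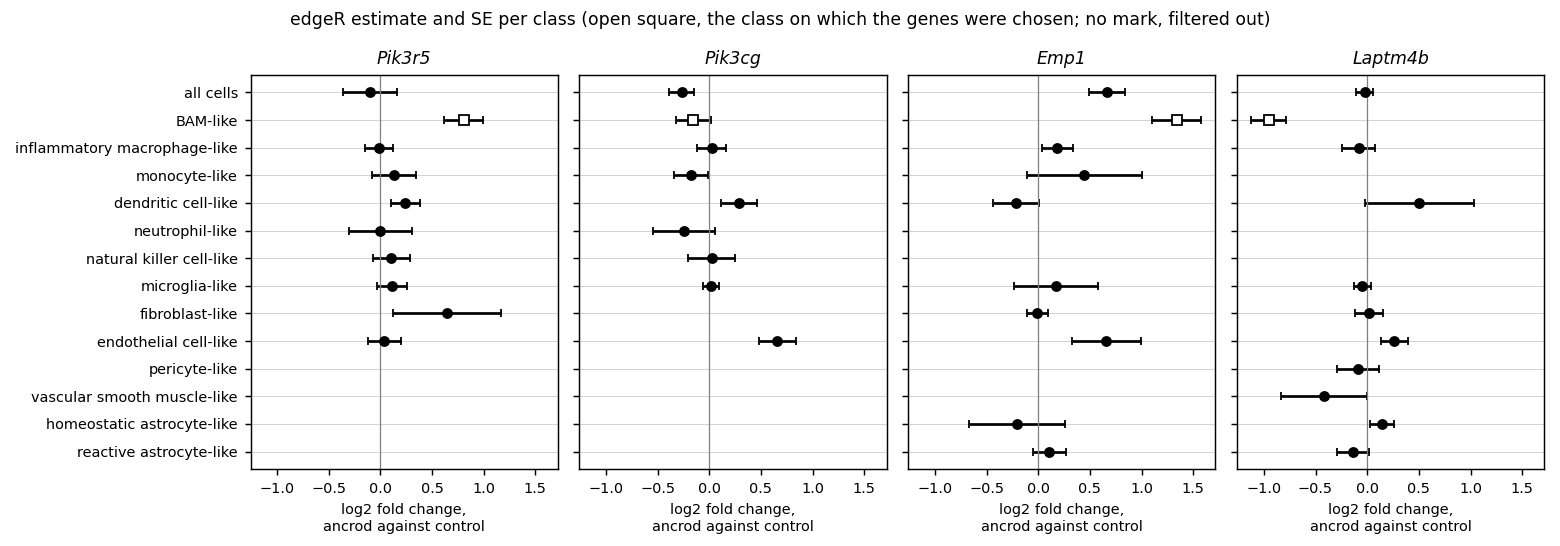
Log2 fold change of ancrod against control (x axis) with its standard error from the edgeR fit of each class, with a filled circle for tested classes, an open square for BAM-like cells, on which the genes were chosen, and no mark where the gene was filtered out. Outside the open squares, Emp1 in all cells together (0.67) and in endothelial cell-like cells (0.66), Pik3cg in endothelial cell-like cells (0.66) and Pik3r5 in fibroblast-like cells (0.64, SE 0.52) lie farthest to the right, and no circle passed the adjusted threshold.

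In all cells together, where fewer cells of a type and less RNA per cell cannot be told apart, Emp1 was at 35.5, 49.3, 48.5 and 39.8 CPM in control and at 78.4, 55.2, 76.0 and 73.7 CPM in ancrod mice, with no overlap. Its log2 fold change was 0.67 (SE 0.17, edgeR unadjusted p = 0.00479, adjusted p = 0.159), and DESeq2 called it at 0.68 with an adjusted p of 0.0157, in a comparison in which DESeq2 called 6.23% of 16186 genes, 18.7% had an unadjusted edgeR p under 0.05 and 4.83% had every ancrod mouse above every control mouse. The edgeR and DESeq2 adjusted p ran from 0.0157 to 0.380 over 16 alternatives and the log2 fold change was 0.61 (SE 0.22) in batch 1 alone. Fibroblast-like cells, the class with the highest mean Emp1 over 8 mice, gave 1.83% to 11.4% of all UMIs in control and 7.30% to 23.7% in ancrod mice. They held a mean of 32.9% of the Emp1 UMIs in control and 41.4% in ancrod mice, inflammatory macrophage-like cells 20.5% and 21.2%, and BAM-like cells 3.16% and 5.55%. Within fibroblast-like and inflammatory macrophage-like cells the difference was -0.01 and 0.18 as given above. Microglia-like cells gave a mean of 42.6% of all UMIs in control and 32.4% in ancrod mice. They held 71.2% and 59.0% of the Pik3r5 UMIs and 79.6% and 70.1% of the Pik3cg UMIs, whereas their 43.6% and 31.1% of the Laptm4b UMIs were close to their part of all UMIs.

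The pathways around the members held no gene that passed the test. Over 6 lists of 76 genes and 14 comparisons (13 classes and all cells), 874 tests were made without the members in BAM-like cells, of which edgeR called 0 after adjustment over all genes of a class and 69 had an unadjusted p under 0.05, the lowest adjusted p being 0.127. The counts of unadjusted p under 0.05 were 5 of 105 for class I PI3K subunits and the adaptor Pik3ap1, 28 of 268 for inputs of PI3K gamma, 16 of 219 for PIP3 phosphatases and effectors, 4 of 41 for the PMP22 and EMP family, 0 of 37 for the LAPTM family and 16 of 204 for lysosomal amino acid sensing, against 8.32% of 139506 tests over all genes.

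In BAM-like cells 1 of 66 list genes other than the members (median log2 fold change 0.03) had an edgeR unadjusted p under 0.05, against 5.8% of all 9442 genes tested there. It was the chemokine receptor Cxcr4 (log2 fold change 0.38, SE 0.15, edgeR adjusted p = 0.792). Cxcr4 is named here after its value was seen. Among the other class I PI3K genes, 7 of 8 passed the filter with a median log2 fold change of -0.00. The B cell and myeloid adaptor Pik3ap1 was at 261 ± 26.6 CPM in control and 267 ± 18.6 CPM in ancrod mice, the regulatory subunit Pik3r1 at 224 ± 13.8 and 200 ± 52.6, and the catalytic subunits Pik3ca at 99.9 ± 8.29 and 113 ± 16.1 and Pik3cd at 91.7 ± 19.4 and 75.2 ± 8.79 CPM (SD, n = 4). Pik3r6, the other subunit of the same kinase, had a log2 fold change of -0.09 (SE 0.22).

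Of the inputs of PI3K gamma, 22 of 24 passed the filter with a median of 0.06. The G protein subunits Gng5 and Gnai2 (log2 fold changes of 0.06, SE 0.12, and 0.02, SE 0.10) and the complement receptors C3ar1 and C5ar1 (0.01, SE 0.11, and 0.03, SE 0.16) were the most abundant. All 18 PIP3 phosphatases and effectors passed with a median of 0.05, among them the PIP3 phosphatase Inpp5d (-0.08, SE 0.12), the GTPases Rac1 (0.10, SE 0.10) and Rac2 (0.03, SE 0.13) and the kinase Gsk3b (0.06, SE 0.12).

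The families of Emp1 and Laptm4b were measured in the same cells. Pmp22 was at 375 ± 66.0 CPM in control and 382 ± 78.6 CPM in ancrod BAM-like cells and Emp3 at 342 ± 70.9 and 369 ± 19.8 CPM, with log2 fold changes of 0.03 (SE 0.17) and 0.11 (SE 0.14), while Emp2 was at 0 in every control mouse and at most 1.74 CPM in an ancrod mouse. Laptm5, the haematopoietic member of its family, was at 689 ± 30.2 and 714 ± 57.0 CPM and Laptm4a at 372 ± 30.6 and 357 ± 29.5 CPM, with log2 fold changes of 0.06 (SE 0.10) and -0.05 (SE 0.11). The lysosomal amino acid sensing genes, 15 of 16 of which passed, had a median of -0.01. They included Slc3a2, the heavy chain of the transporter that LAPTM4B brings to the lysosome (0.05, SE 0.12), the Ragulator subunits Lamtor1 (0.02, SE 0.13) and Lamtor2 (-0.01, SE 0.13) and the Rag GTPase Rragc (0.07, SE 0.12). A p that misses the threshold does not show that these genes were the same in both groups.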

How the data were processed

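Single-cell libraries of 8 mice (10x Genomics 3′ v3.1) were analysed. The deposited files hold whole UMI counts per gene and droplet, which the authors made with Cell Ranger 7.1.0 and GRCm39, not normalized and including all droplets. The labels name 1 sex and the design text names C57Bl/6J, but the methods give C57BL/6N and mice of both sexes, a disagreement that was not resolved. The labels call the libraries biological replicates.

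Droplets with at least 2000 UMIs and under 20% mitochondrial UMIs were kept, and the highest scores of a Scrublet procedure were removed at 0.8% per 1000 cells. Cells were clustered on 3000 variable genes without mitochondrial, member and list genes (20 principal components, 20 neighbours, Leiden resolution 2, leidenalg 0.10.2), with the myeloid cells clustered again. Clusters were named by fixed markers. Thresholds for leaving a cluster unnamed (score under 0.25, or 0.35 for a class of another niche) were chosen with the clusters in view, before the 4 genes were fitted, and a small cluster led by genes of several classes and the dividing Mrc1-led cluster stayed unnamed. UMIs were summed per mouse and class with at least 10 cells in each mouse and tested with edgeR 4.0.16 (R 4.3.3, TMM, filterByExpr, quasi-likelihood, two-sided, Benjamini-Hochberg over all genes of a class, threshold 0.05). DESeq2 1.42.0, no filter, batch and replicate terms, each mouse left out, other cell filters and clusterings were alternatives. Only the edgeR fit was run on simulated counts, for BAM-like, inflammatory macrophage-like and microglia-like cells, and none of the earlier steps was.

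The members, gene lists and markers were chosen with earlier results of these data known. Named genes were the members, list genes past the threshold, the 5 genes most like each member, up to 4 list genes of highest CPM in BAM-like cells and the genes nearest the threshold there. Coordinates come from GENCODE on GRCm39 and promoter sequences from RefSeq on GRCm38.p6, with 3 of 4 members matched. Free RNA was taken from droplets of at most 100 UMIs.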

Additional observations from a re-analysis of the deposited data

Results flagged for a closer look

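In 2 of 80 groups of 4 mice, 1 mouse stood farther from the others than Dixon's critical value for 4 samples allows, and chance alone flags about 1 group in 20. Laptm4b in BAM-like cells was at 45.5 CPM in control mouse 2, against 32.9 to 34.6 CPM in the other control mice. Without that mouse the log2 fold change of ancrod against control was -0.84. Laptm4b in reactive astrocyte-like cells was at 76.4 CPM, on 158 UMIs, in the same mouse, against 48.1 to 51.2 CPM in the other control mice and 49.0 to 55.6 CPM in ancrod mice. Control mouse 2 was also the control mouse with the smallest share of BAM-like cells in the cluster not led by Cd163, at 16.2%.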

How the results depend on the processing

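The sign of the estimate in BAM-like cells was the same under all 23 alternatives for Pik3r5, Pik3cg and Emp1. It was also the same under all 22 for Laptm4b, which was filtered out once cells had been thinned to 2000 UMIs. These alternatives reuse the mice and the contrast that chose the genes, so the shared sign is a description only. Naming clusters by score alone was among these alternatives but left the BAM-like cells the same, so it could not change the estimates. Every unnamed myeloid cluster scored highest as inflammatory macrophage. For Pik3cg the estimate was as small as -0.0041 (SE 0.23) in the Cd163-led clusters. The log2 fold change of Pik3r5 was 0.46 in thinned cells and 0.40 in the cluster not led by Cd163, and that of Laptm4b was -1.20 in cells with and -0.25 in cells without a UMI of Lyve1 or Cd163 and -0.022 in the cluster not led by Cd163. Leaving out 1 mouse gave 0.69 to 0.97 for Pik3r5, -0.30 to -0.01 for Pik3cg, 1.15 to 1.64 for Emp1 and -1.05 to -0.84 for Laptm4b. Without doublet removal Emp1 was at 0.90, and in batch 1 alone the values were 0.79, -0.10, 1.45 and -1.09. In the other classes and in all cells together, which include BAM-like cells, DESeq2 called 1 test (Emp1 in all cells) and the other settings 0. Among all genes of BAM-like cells, calls numbered 0 with edgeR, 12 with DESeq2, 4 with no filter, 2 in batch 1 alone, 1 without control mouse 3, 2 in cells with and 1 in cells without a UMI of Lyve1 or Cd163, and 0 under the other settings. The division into clusters led and not led by Cd163 and the alternatives for class levels were chosen after seeing the data. The class with the highest level was the same for 4 of 4 genes under most settings and for 2 to 4 when 1 mouse was left out (2 without ancrod mouse 4, where Pik3cg was highest in microglia-like and Laptm4b in fibroblast-like cells). It was the same for 3 without control mouse 4, without doublet removal and with the inflection-point filter. The causes were not tested.

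Replicate numbers did not pair the mice, with correlations of deviations between same-numbered mice of -0.47, -0.32, 0.03 and 0.16 in all cells. With the number as a block the log2 fold changes in BAM-like cells were 0.80 for Pik3r5, -0.14 for Pik3cg, 1.42 for Emp1 and -0.94 for Laptm4b. With this block 0 tests of the members were called in the other classes and all cells together, and 0 among all genes of BAM-like cells.

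With 4 mice per group and 718 BAM-like cells, Laptm4b rested on 429 UMIs and small changes could not be resolved. Intervals and shares cover these libraries only. Classes were rebuilt from markers, and no uninjured tissue was analysed here. The ancrod libraries were all deeper, and in thinned cells the log2 fold change was 1.57 for Emp1 and 0.46 for Pik3r5.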
